A study of Mus musculus with 20 samples.

Results

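Chrna5, Chrna3 and Chrnb4 are 3 neighbouring genes that encode the alpha5, alpha3 and beta4 subunits of nicotinic acetylcholine receptors, and they were followed here in Trpv1-expressing sensory neurons of mouse dorsal root ganglia (DRG). They were chosen by their Ensembl identifiers, as 3 of the 37620 genes listed, of which 28233 had a value in at least 1 library. The lumbar against sacral contrast and the co-variation of the genes over libraries were in view when they were chosen, so both are described with values and intervals but without a test. Comparisons of the sexes were not part of the rule of choice and were tested. Earlier results of these data, which include comparisons of the sexes, were known at the choice. The sex tests are therefore not independent of those results.

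The study compared L4-5 (lumbar) with L6-S1 (sacral) DRG of the same donors, with 5 male and 5 female donors and 20 libraries in 4 groups of 5. The lumbar ganglia supply mainly the hindlimb and the sacral ganglia also supply pelvic organs. All groups shared the same genotype and age: the adult mice were homozygous for Trpv1tm2Bbm, a reporter allele at Trpv1, and were 6 to 8 weeks old, and none had a treatment. Neurons were sorted by the activity of the reporter enzyme, beta-galactosidase, on a fluorescent substrate. Only the brightest fraction of positive cells was kept, so dimmer Trpv1 neurons are not represented, and the RNA was amplified before sequencing. The label of a donor names 2 animal numbers although the methods speak of 5 male and 5 female mice, so pooling of animals cannot be told from the labels. Donors are called male 1 to 5 and female 1 to 5 below.

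Nicotinic receptors are pentameric cation channels opened by acetylcholine. The alpha3 subunit carries the principal face of the binding site and needs a beta subunit such as beta4, and alpha3beta4 receptors are best known as the main receptors of fast transmission in autonomic ganglia. The alpha5 subunit is an accessory subunit that joins receptors already holding an alpha and a beta subunit. The 3 genes lie side by side in mammals, and functional receptors of this composition are also known in sensory neurons.

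On mouse genome build NCBIM37 (mm9), the cluster occupies 67665 bp of chromosome 9. Chrna5 (ENSMUSG00000035594) lies on the plus strand at chr9:54828687-54855586 with 7 exon blocks. Chrna3 (ENSMUSG00000032303) lies on the minus strand at chr9:54859150-54874366 and Chrnb4 (ENSMUSG00000035200) at chr9:54875963-54896351 on the same strand, each with 6 exon blocks. Chrna5 and Chrna3 face each other tail to tail across 3563 bp, and 1596 bp separate the start of Chrna3 from the end of Chrnb4. None of the 3 genes overlaps another annotated gene, so their reads were not shared with an overlapping gene at this annotation.

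The promoters of the 3 genes are shown because Chrna3 and Chrnb4 moved together between the levels. Each window holds 250 bases before and 50 bases after an annotated transcript start, 5′ to 3′ on the strand of the gene, and capitals mark GC boxes (GGGCGG on either strand). The windows are chr9:54829023-54829322 (plus strand) for Chrna5, chr9:54874317-54874616 (minus strand) for Chrna3 and chr9:54896302-54896601 (minus strand) for Chrnb4.
Chrna5: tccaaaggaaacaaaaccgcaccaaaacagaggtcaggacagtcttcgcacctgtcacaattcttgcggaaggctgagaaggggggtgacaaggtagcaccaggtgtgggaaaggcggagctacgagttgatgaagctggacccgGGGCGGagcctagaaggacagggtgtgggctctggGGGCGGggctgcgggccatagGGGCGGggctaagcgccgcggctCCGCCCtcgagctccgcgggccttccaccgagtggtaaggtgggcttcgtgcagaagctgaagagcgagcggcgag
Chrna3: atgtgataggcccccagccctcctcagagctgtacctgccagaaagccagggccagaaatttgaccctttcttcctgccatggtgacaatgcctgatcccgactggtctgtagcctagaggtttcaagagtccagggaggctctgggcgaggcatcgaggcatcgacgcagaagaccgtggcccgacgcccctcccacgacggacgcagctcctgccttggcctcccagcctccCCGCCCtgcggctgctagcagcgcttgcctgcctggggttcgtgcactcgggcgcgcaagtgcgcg
Chrnb4: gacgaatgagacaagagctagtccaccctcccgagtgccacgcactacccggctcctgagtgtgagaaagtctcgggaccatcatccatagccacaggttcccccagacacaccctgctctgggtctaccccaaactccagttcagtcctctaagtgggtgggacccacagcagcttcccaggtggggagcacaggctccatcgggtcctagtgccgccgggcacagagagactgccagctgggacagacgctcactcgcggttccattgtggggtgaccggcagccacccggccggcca

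The promoters differed in these letters although the genes are neighbours. The Chrna5 window held 4 GC boxes and the Chrna3 window held 1, which begins at position -16 from the start. The Chrnb4 window held none, and 44.2% of the 45999 windows of protein-coding transcript starts held at least 1. The E-box letters CANNTG, which were also searched on both strands, occurred 2 times in the Chrna5 and Chrnb4 windows and 1 time in that of Chrna3, and 69.2% of all windows held them. The AP-1 letters TGANTCA (6.48% of all windows), the SOX core ACAAAG (16.8%) and the TATA box TATAAA (11.4%) were in none of the 3 windows. None of these matches overlapped a GC box. G and C made up 63.7%, 64.7% and 63.0% of the windows of Chrna5, Chrna3 and Chrnb4, where the median window had 56.3%. Chrna5 has 2 further annotated starts, of which that at 54828687 had no GC box in its window and that at 54829340 shares the GC boxes shown.

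Total read depth was similar in the 2 levels, with 43499216 to 65542378 reads on genes per library, as worked back from the deposited values. These totals include mitochondrial reads. From 20720 to 22507 genes per library had a value. The mitochondrial genome took 37.7 to 60.9% of reads in lumbar (median 55.9%) and 21.9 to 42.1% in sacral libraries (median 29.97%). Fewer reads were thus left for other genes in lumbar DRG. Trpv1, the defining gene of the sort, was present in every library with 1222 to 8345 reads, and its mean log2 RPKM (log2 of reads per kilobase of exon scaled to library size, in which levels of different genes can be compared) was 3.74 ± 0.41 in lumbar and 4.70 ± 0.35 in sacral DRG (SD, n = 10). Markers of satellite glia and Schwann cells were detected in every library, with a summed level of 11.003 to 11.99 log2 RPKM in lumbar and 10.31 to 11.06 in sacral libraries.

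Chrnb4 and Chrna3 were expressed in every library and were both higher in sacral DRG in 10 of 10 donors, Chrna3 by 9.46-fold and Chrnb4 by 6.23-fold on average. Of the 15318 genes that passed the filter on low values and had a value in every library, 14.6% were higher in sacral DRG in all 10 donors. Chrna5 was almost undetected, with at most 36 reads in a library. In bulk RNA of sorted cells, fewer cells that express a gene and less RNA per cell cannot be told apart.

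Chrna3 was the member with the largest difference between levels. In lumbar DRG its log2 RPKM was 0.20, -0.81, -0.57, 0.80 and 0.22 in male donors 1 to 5 and 1.04, 1.08, 0.29, -0.19 and 0.46 in female donors 1 to 5. In sacral DRG it was 3.05, 2.87, 1.67, 2.51 and 3.59 in the male donors and 4.76, 3.19, 4.24, 4.20 and 4.85 in the female donors. The lowest sacral library (male 3, 492 reads) lay above the highest lumbar library (female 2, 390 reads), so the levels did not overlap, which held for 1.34% of these 15318 genes in this direction. On the linear scale Chrna3 averaged 1.29 ± 0.54 RPKM in lumbar and 13.9 ± 9.0 RPKM in sacral DRG (SD, n = 10).

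Chrnb4 was more abundant than Chrna3 and followed the same order of groups. In lumbar DRG its log2 RPKM was 1.66, 1.80, 1.11, 0.65 and 1.61 in male donors 1 to 5 and 2.67, 2.85, 1.86, 1.74 and 1.93 in female donors 1 to 5. In sacral DRG it was 3.79, 3.53, 3.11, 3.13 and 4.45 in the male donors and 5.88, 4.83, 4.89, 5.07 and 5.60 in the female donors. Again no lumbar library reached the lowest sacral library, and the sacral libraries formed separate ranges of male (3.11 to 4.45) and female donors (4.83 to 5.88). Its mean was 3.78 ± 1.73 RPKM in lumbar and 26.4 ± 17.1 RPKM in sacral DRG, which rested on 257 to 1482 and 1491 to 11791 reads per library.

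Chrna5 lay at the limit of detection. In lumbar DRG, male donor 3 had 1 read, female donor 2 had 9 and female donor 5 had 3, and the other 7 libraries had none. In sacral DRG the male donors 1 to 5 had 5, 2, 0, 14 and 2 reads and the female donors had 24, 19, 0, 2 and 36. Reads summed to 13 over the 10 lumbar and 104 over the 10 sacral libraries, and female donors 5, 1 and 2 gave most of the sacral reads. These counts are not corrected for the larger mitochondrial share of reads in lumbar libraries. Only 1 lumbar and 5 sacral libraries exceeded 3 reads, the limit that a count of 0 allows. Chrna5 therefore did not enter the test across genes, and only 2 of the 3 genes did.

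**Figure D1:**
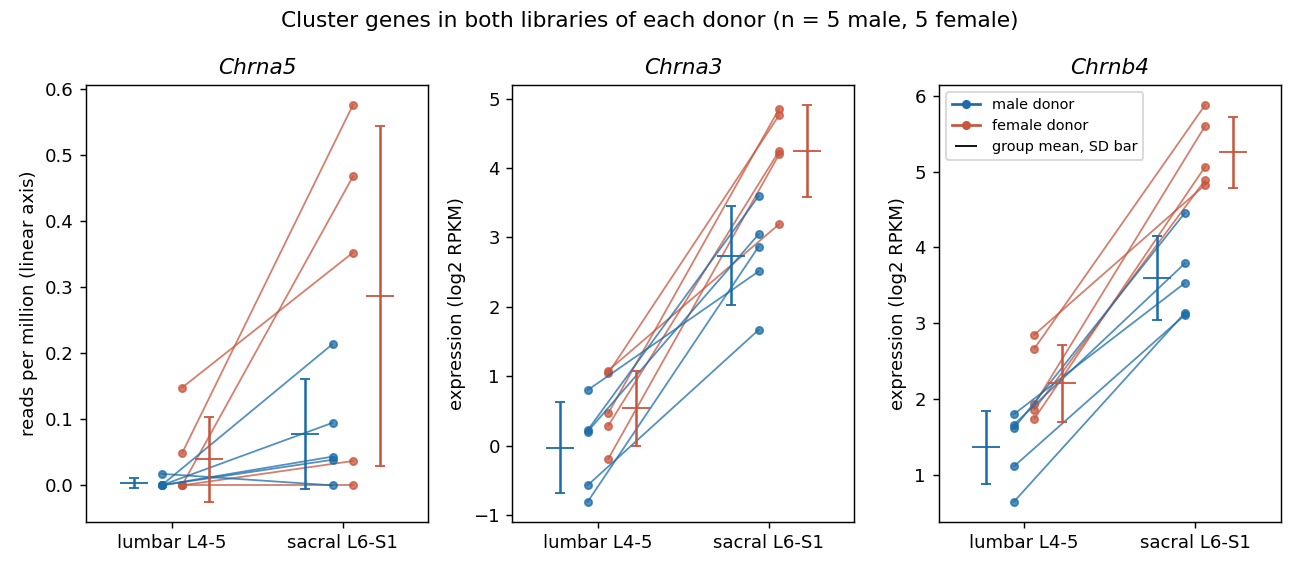
Chrna5 (CPM, reads scaled to library size), Chrna3 and Chrnb4 (log2 RPKM) in the lumbar and sacral library of each donor, with a line for each of 5 male (blue) and 5 female (red) donors and the group mean with its SD beside them. All 10 lines of Chrna3 and of Chrnb4 rise from lumbar to sacral, whereas for Chrna5 most points lie at or near 0.

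As lumbar minus sacral, for which negative values are upregulation in sacral DRG, the fitted difference was -3.24 for Chrna3 (standard error 0.24, 95% interval -3.73 to -2.75) and -2.64 for Chrnb4 (standard error 0.18, 95% interval -3.01 to -2.27) on the log2 scale. The median of all 16304 genes fitted was -0.11, and it ran from -0.43 to 0.12 under other scalings of the libraries, a shift that applies to the members too. Across all genes 45.6% differed between the levels at an adjusted p of at most 0.05 (limma), 30.3% with higher values in sacral and 15.3% in lumbar DRG. These shares are background only, since the contrast was in view when the 3 genes were chosen.

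Donors differed in the size of the change. Chrna3 was 3.27-fold higher in sacral DRG in male donor 4 and 21.0-fold higher in female donors 4 and 5. For Chrnb4 the lowest fold was 3.32 in male donor 2 and the highest was 12.8 in female donor 5. Female donor 2 had the smallest change of the female donors for both genes (4.32-fold for Chrna3 and 3.94-fold for Chrnb4), and it also had the highest lumbar values of both. The mean sacral over lumbar fold was 6.82 for Chrna3 and 4.71 for Chrnb4 in male donors, and 13.1 and 8.25 in female donors (n = 5 each).

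In the fit of the deposited log2 values, Chrnb4 was the member that passed between the sexes in sacral DRG (adjusted p of at most 0.05). Female donors had 38.1 RPKM and male donors 12.1 RPKM (geometric means, n = 5 each), a female minus male difference of 1.65 on the log2 scale (standard error 0.28, 95% interval 1.07 to 2.23, adjusted p = 0.0237, limma). All 5 female values lay above all 5 male values, as they did for 0.849% of genes. Only 0.0368% of the 16321 genes tested passed between the sexes in sacral DRG, namely the 6 genes Ddx3y and Uty of the Y chromosome, Xist of the X chromosome, Penk, Car8 and Chrnb4. Of these, Xist and Chrnb4 (0.0123% of genes tested) were higher in female donors, and 8.09% of genes had an unadjusted p under 0.05. The Chrnb4 call was lost when any of 6 donors was left out. Without male donor 1, 2, 3 or 4 the adjusted p was 0.0772, 0.102, 0.138 or 0.0614, and without female donor 1 or 5 it was 0.119 or 0.140 (limma), with differences of 1.49 to 1.70.

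Chrna3 pointed the same way with a wider spread. In sacral DRG female donors had 19.0 RPKM and male donors 6.67 RPKM (geometric means, n = 5 each), a difference of 1.51 on the log2 scale (standard error 0.37, 95% interval 0.75 to 2.28) that did not pass the correction (adjusted p = 0.221, limma). Of the 5 female donors, 4 lay above all male donors, and female donor 2 lay below male donor 5. The difference passed in 4 of 24 other settings, among them voom on the worked-back reads with TMM scaling (1.53, adjusted p = 0.0180, limma). That Chrnb4 passed and Chrna3 did not does not show that the 2 genes differed in this respect.

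In lumbar DRG neither gene passed between the sexes. The female minus male difference was 0.84 for Chrnb4 (standard error 0.28, adjusted p = 0.331, limma) and 0.57 for Chrna3 (standard error 0.37, adjusted p = 0.556, limma). For Chrnb4, 4 of 5 female donors lay above all males, and for Chrna3 2 of 5 did. There 0.0427% of 16386 genes passed, 0.0244% with higher values in female donors, and 0.594% of genes had all females above all males.

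Whether the sex difference itself changed with the level was tested as an interaction, and no gene passed it (0 of 16304 after adjustment here and in each of 24 other settings, 668 or 4.1% at an unadjusted p under 0.05, limma). For Chrna3 the lumbar sex difference minus the sacral sex difference was -0.94 (95% interval -1.93 to 0.04, adjusted p = 0.9996, limma). For Chrnb4 it was -0.81 (95% interval -1.56 to -0.06, adjusted p = 0.9996, limma). On the differences per donor, sacral minus lumbar log2 RPKM was 3.04 ± 0.64 in female and 2.24 ± 0.43 in male donors for Chrnb4 (SD, n = 5, exact permutation test, two-sided p = 0.0635, 0.127 after adjustment over 2 genes). For Chrna3 it was 3.71 ± 0.94 in female and 2.77 ± 0.81 in male donors (exact permutation test, two-sided p = 0.135, 0.135 after adjustment). The smallest p that 5 against 5 donors allow is 0.0079. For Chrna5 the female minus male difference in CPM was 0.208 in sacral DRG (exact permutation test, two-sided p = 0.159) and 0.0358 in lumbar DRG (p = 0.444), and after adjustment over 4 tests both were at 0.611.

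**Figure D2:**
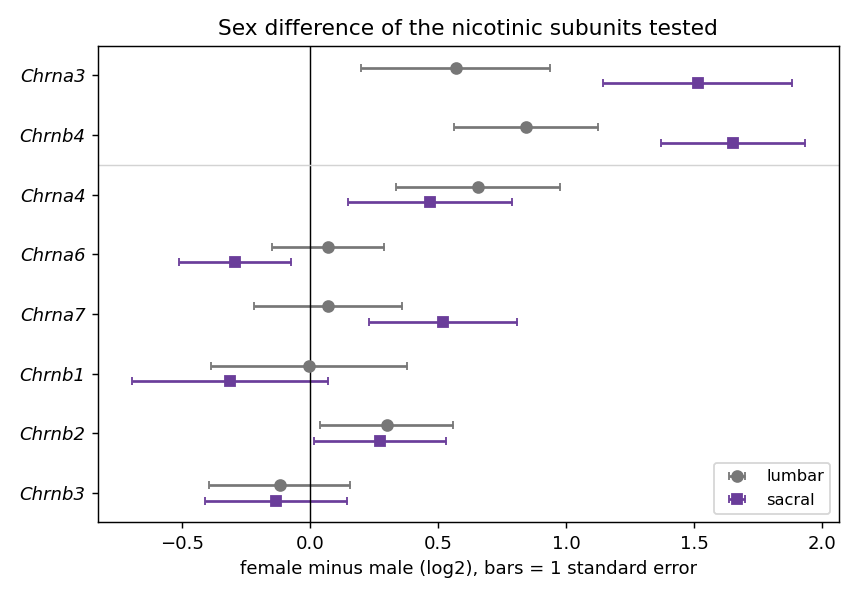
Female minus male difference (log2, bars of 1 standard error from limma) in lumbar (grey circles) and sacral DRG (purple squares) for the 8 nicotinic subunit genes that were tested, with 5 donors of each sex. Chrnb4 (1.65) and Chrna3 (1.51) in sacral DRG lie furthest to the right, and the 6 other subunits lie between -0.31 and 0.65.

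Markers of other cell types differed between the levels too. Between the levels, 9 of 10 markers of satellite glia and Schwann cells, 7 of 7 of endothelial and mural cells, 4 of 5 of red cells and 1 of 3 tested of macrophages were higher in lumbar DRG, and 7 of 10 nociceptor markers were higher in sacral DRG (limma, adjusted p threshold 0.05), beside 15.3% of all genes tested in the first direction and 30.3% in the second. In sacral DRG the summed glial level was 10.31 to 10.78 log2 RPKM in female and 10.54 to 11.06 in male donors, and none of the 10 markers passed between the sexes. The summed endothelial level was 3.06 to 4.99 in female and 3.68 to 5.47 in male sacral libraries, and the red cell level was -0.93 to 1.89 and -0.24 to 2.80. With the glial mean as a covariate the level difference was -2.66 for Chrna3 and -1.92 for Chrnb4, and the sacral sex difference of Chrnb4 was 1.35 with an adjusted p of 0.138 (limma). The summed glial level was higher in lumbar DRG in 10 of 10 donors, so glial content and spinal level cannot be told apart by this covariate. With it the standard error of the Chrna3 level difference was 0.44. The part of glia, of the other cell types and of the mitochondrial share in the results was not tested. Macrophage markers summed to 1.58 to 3.79 log2 RPKM in lumbar and 0.97 to 2.18 in sacral libraries, endothelial markers to 3.77 to 6.298 and 3.06 to 5.47, and red cell markers to 0.18 to 4.07 and -0.93 to 2.80.

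Autonomic neurons, in which the cluster is best known, were checked by 8 markers, of which 2 were tested and Th was higher in sacral DRG (-1.399, adjusted p = 4.61e-06, limma). Th makes the precursor of catecholamines and is also expressed by a class of sensory neurons, and it carries most of the summed level of the list (3.86 to 5.61 log2 RPKM in lumbar and 5.49 to 6.77 in sacral libraries). The defining transcription factor Hand2 had no value in any library. Dbh, the enzyme that makes noradrenaline, had at most 50 reads in a library.

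Within a library Chrnb4 exceeded Chrna3 in 19 of 20 cases. The exception was the lumbar library of male donor 4, where Chrna3 (0.80) lay above Chrnb4 (0.65). The log2 ratio of Chrna3 to Chrnb4, which does not depend on scaling between libraries, was -1.54 ± 0.69 in lumbar and -0.93 ± 0.35 in sacral DRG (SD, n = 10). Chrnb4 was thus 2.90-fold above Chrna3 in lumbar and 1.91-fold in sacral DRG. In 9 of 10 donors the ratio was closer to equal in sacral DRG, with a mean change of 0.60 ± 0.70 (SD), and male donor 4 changed by -0.78. Between the sexes the ratio differed by -0.27 in lumbar (female minus male, exact permutation test, two-sided p = 0.611) and by -0.14 in sacral DRG (exact permutation test, p = 0.540), both 0.611 after adjustment. These signs each turned when a single donor was left out (male donor 4 in lumbar, to 0.11, and female donor 2 in sacral DRG, to 0.020).

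**Figure D3:**
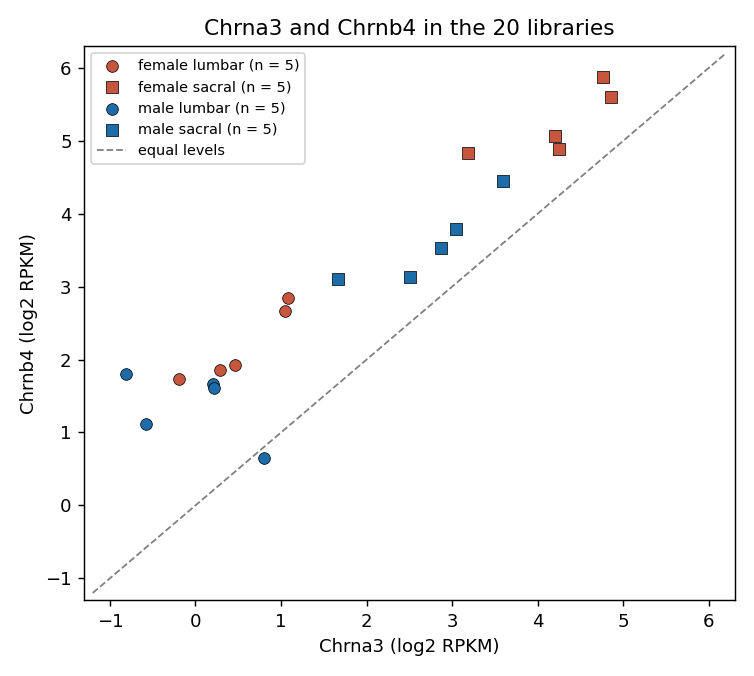
Chrnb4 against Chrna3 (both log2 RPKM) in the 20 libraries, by sex (red female, blue male) and level (circles lumbar, squares sacral), with a dashed line of equal levels. All 10 sacral libraries and 9 of the 10 lumbar libraries lie above the line, and the lumbar library of male donor 4 lies below it.

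The libraries fall into separate lumbar and sacral clusters, so co-variation is given within each. Over the 10 sacral libraries Chrna3 and Chrnb4 had a Pearson correlation of 0.94, and 0.85 after the group means of the sexes were removed. Over the 10 lumbar libraries the coefficient was 0.42, and 0.15 after removal of group means. It rose to 0.82 without male donor 4. Without the 2 libraries farthest from the Chrna3 median it was 0.93 in sacral and 0.34 in lumbar DRG. On deviations from the 4 group means over all 20 libraries, r was 0.53 and Spearman's rho was 0.57. The glial marker mean had correlations of -0.58 with Chrna3 and -0.75 with Chrnb4 over the sacral libraries, and Trpv1 had 0.29 and 0.48.

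Among all 16 nicotinic subunit genes of the table, the cluster took a larger share of the RNA in sacral DRG. Summed RPKM of the 3 genes made up 15.0 ± 4.0% of the family in lumbar and 43.5 ± 16.01% in sacral DRG (SD, n = 10). The share ran from 7.74 to 16.2% in male lumbar, 14.9 to 20.9% in female lumbar, 18.3 to 37.5% in male sacral and 45.7 to 63.2% in female sacral libraries. The 2 sacral groups did not overlap, and this share was not tested.

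In lumbar DRG Chrna6, an alpha subunit that pairs with beta2 and beta3, was the most abundant of the family at 12.2 RPKM, followed by Chrnb3 at 7.89, Chrnb4 at 3.78 and Chrnb2 at 3.41, and Chrna3 was in place 7 at 1.29 RPKM. In sacral DRG, over both sexes, Chrnb4 was first at 26.4 RPKM, followed by Chrna6 at 18.4, Chrnb3 at 14.2 and Chrna3 at 13.9. Its first place rested on the female donors. Chrnb4 averaged 39.8 RPKM in female and 12.9 RPKM in male sacral libraries, the latter below these means of Chrna6 and Chrnb3. In sacral DRG the neighbours in this order among these 4 differed by less than the SD of the cluster gene on the log2 scale (means 4.43, 4.18, 3.79 and 3.49, SD of Chrnb4 0.99 and of Chrna3 1.03). In lumbar DRG the means of Chrnb4 and Chrnb2 also lay within 1 SD of each other (1.79 ± 0.64 and 1.68 ± 0.53). These SDs are between libraries, and in sacral DRG they include the difference between the sexes. They do not decide whether 2 genes differ within a library, which was not tested for this order. Chrna5 stood in place 12 and place 11 of the family.

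**Figure D4:**
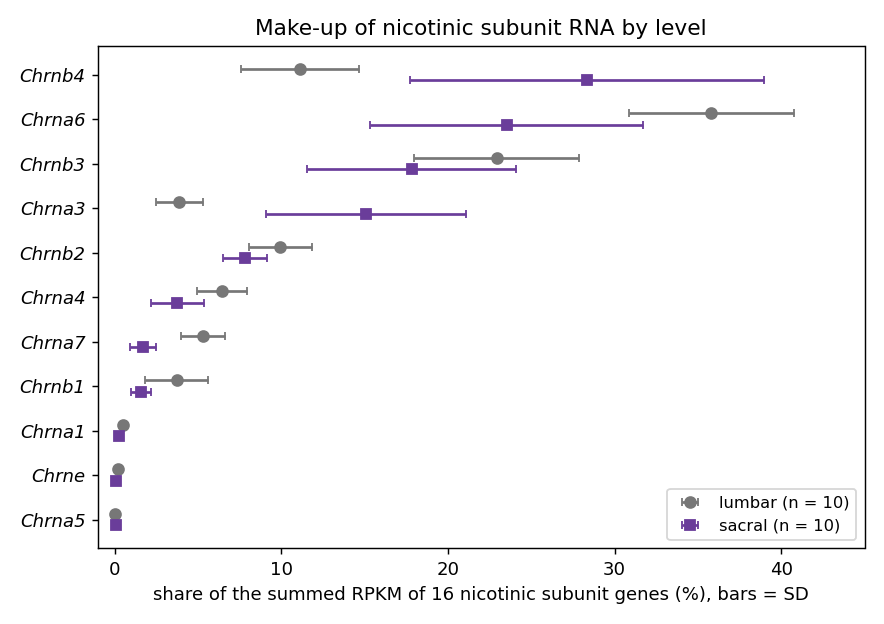
Share of each subunit gene in the summed RPKM of the 16 nicotinic subunit genes (%, mean with SD over 10 libraries) in lumbar (grey circles) and sacral DRG (purple squares), for the 11 genes with a value in at least 11 libraries. Chrnb4 goes from 11.1 to 28.3% and Chrna3 from 3.87 to 15.1%, whereas Chrna6 goes from 35.8 to 23.5%.

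Of the other 13 subunit genes, 6 were tested between the levels, 3 were higher in sacral DRG and none was higher in lumbar DRG (limma, adjusted p threshold 0.05), beside 30.3% and 15.3% of all genes tested, and their median was -0.55 beside -0.11 for all genes. Chrnb2, the most widespread neuronal beta subunit, changed by -0.97 (standard error 0.17, adjusted p = 0.000106, limma), Chrnb3 by -0.91 (adjusted p = 0.000360, limma) and Chrna6 by -0.64 (adjusted p = 0.00108, limma). These 3 were negative and called under each of 4 other scalings. None of the 6 was called with the glial mean as a covariate, where Chrnb2 was at -0.017, Chrnb3 at -0.074 and Chrna6 at 0.032. The cause was not tested. Without male donor 4, 5 of the 6 were called. Chrna4 was at -0.47 (adjusted p = 0.0696, limma), Chrna7, which forms homomeric receptors, was at 0.40 (adjusted p = 0.0844, limma) and Chrnb1 was at -0.13, a sign that turned under 2 of the 4 scalings. None of the 6 passed between the sexes in sacral DRG. The remaining 7 subunits, Chrna1 of muscle receptors among them, fell below the filter on low values.

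Proteins that assemble or modulate nicotinic receptors were measured as well. Of 9 such genes 7 were tested and 2 were higher in sacral DRG, a count near the 30.3% of all genes tested. Ric3, a chaperone of nicotinic receptors, changed by -0.36 (adjusted p = 0.000455, limma) and Lynx1, a membrane-anchored modulator, by -0.53 (adjusted p = 0.00121, limma). Both kept sign and call under the 4 other scalings, and neither passed between the sexes.

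Of 4 tested genes that handle acetylcholine, 3 were higher in sacral and 1 in lumbar DRG, beside the same shares of all genes. Ache and Bche, the enzymes that break it down, were higher in sacral DRG (-1.34, adjusted p = 2.13e-06, and -0.98, adjusted p = 3.26e-06, limma), as was Slc5a7, the choline transporter (-0.95, adjusted p = 0.000746, limma). Prima1, the membrane anchor of Ache, was higher in lumbar DRG (0.83, adjusted p = 6.2e-05, limma). Chat, the enzyme of acetylcholine synthesis, had no value in any library. All 4 kept sign and call under the other scalings. Of 8 transcription factors known from work on the promoters of the cluster, 6 were tested, and 2 were higher in lumbar and 2 in sacral DRG, beside the 15.3% and 30.3% of all genes. Sp1 (0.68, adjusted p = 0.000188, limma) and Sox10, which is also a glial gene (1.402, adjusted p = 2.72e-06, limma), were higher in lumbar DRG. Pou4f1, a determinant of sensory neurons, was higher in sacral DRG (-0.70, adjusted p = 7.38e-06, limma). Hnrnpk was at -0.19 (adjusted p = 0.0176, limma) but at 0.002 with quantile normalization.

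The tested genes around the cluster had smaller fitted differences between the levels than Chrna3 and Chrnb4. Within 500 kb on either side lay 22 other annotated genes, of which 20 had a value and 16 were tested. Their differences ran from -0.84 to 1.02 with a median of -0.18, 7 were higher in sacral and 2 in lumbar DRG, beside 30.3% and 15.3% of all genes tested. Of the 7, only Dmxl2 and Isl2 were also called on reads scaled outside the mitochondrial genome. Dmxl2 (-0.84), a synaptic vesicle protein, and Isl2 (-0.56), a transcription factor of sensory and motor neurons, held in the 4 other scalings, whereas Idh3a (-0.17) turned sign in 2 of them. Acsbg1 (0.97), an acyl-CoA synthetase, and Crabp1 (1.02), a retinoic acid binding protein, were the 2 genes higher in lumbar DRG. The nearest gene on the side of Chrna5, Psma4, a proteasome subunit, was at -0.08 (adjusted p = 0.424, limma), and the nearest tested on the side of Chrnb4, Ube2q2, was at -0.11 (adjusted p = 0.317, limma). None of the 16 passed between the sexes in sacral DRG. Crabp1 had the largest sex difference of them, at 1.85 (standard error 0.37, adjusted p = 0.104, limma).

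**Figure D5:**
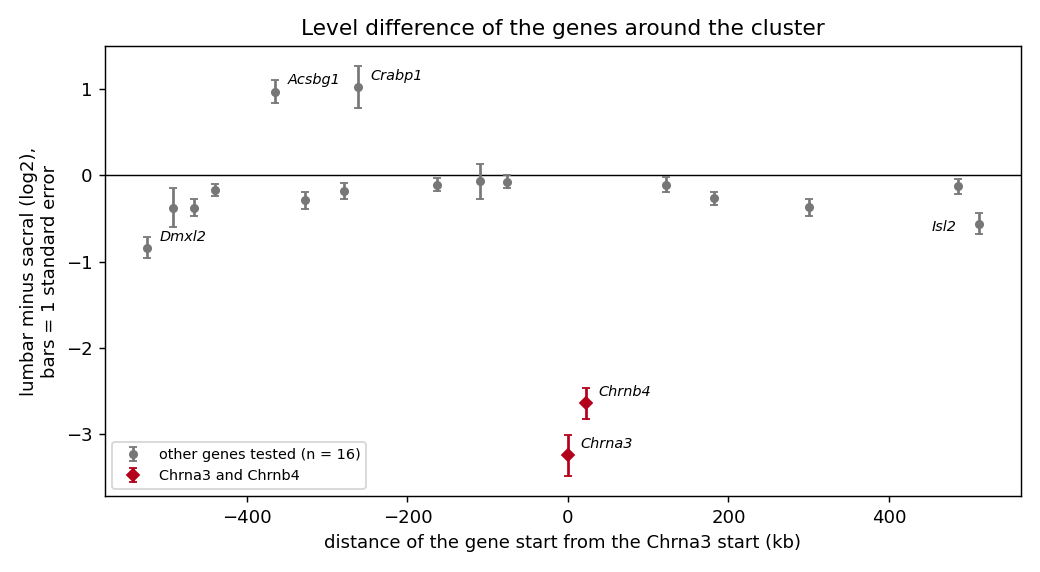
Lumbar minus sacral difference (log2, bars of 1 standard error from limma) against the distance of the gene start from that of Chrna3 (kb), for Chrna3 and Chrnb4 (red diamonds) and 16 other genes (grey circles). The 2 cluster genes lie at -3.24 and -2.64 and the other genes between -0.84 and 1.02.

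The genes whose pattern over the 20 libraries was most like the mean of the standardised Chrna3 and Chrnb4 values were Sh3gl2 (r = 0.951), Slc4a11 (0.951), Negr1 (0.946), Ern2 (0.944), Mgat4a (0.939), Syngr1 (0.935), Thy1 (0.934) and Adora1 (0.928), of 17138 genes with a value in every library, with no filter on low values. Like the cluster all 8 were higher in sacral than in lumbar DRG, with means of -2.004 and 0.85 log2 RPKM for Ern2 and 2.71 and 4.37 for Negr1. The lumbar and sacral libraries form separate clusters here too, so this measure favours genes that differ between the levels. On deviations from the 4 group means, which leave out level and sex, the closest were D9Ertd402e (r = 0.800), 2310035K24Rik (0.799), Gbe1 (0.786), Acta1 (0.757), Mark1 (0.754), Sema4b (0.734), Mpnd (0.732) and Tmem54 (0.729). No gene stood in both lists of 8. Each list holds the highest of 17138 coefficients, and how many genes reach such values by chance was not worked out. Acta1 had as few as 6 reads in a library and fell below the filter on low values.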

How the data were processed

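RNA was measured by sequencing in neurons sorted from lumbar and sacral DRG, with 20 libraries placed in groups by their labels. Per the methods and the submitters' processing notes, the authors used Subread for alignment to mm9, retained unique hits, ran featureCounts on Ensembl genes, and scaled the counts by TMM before voom in limma. The notes name limma 3.26.9 and Subread 1.18 and 1.20.6. The table deposited by the authors holds log2 RPKM, 1 column per library, without a number added before the log. Every library has the same median of 0.93, for which the methods give no step, and strandedness of the counting is not given in the sources used here. Empty cells were taken as 0 reads in counts and as missing in the fits. Reads were worked back by multiplying RPKM by exon length and dividing by a constant of each library. Whole reads resulted for 98.07% of 430293 values (within 0.01 of a read). Voom on these reads called 6865 genes between the levels and 35 between the sexes in sacral DRG.

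Deposited log2 values were fitted in R 4.3.3 (limma 3.58.1, statmod 1.5.0) with a mean for each of 4 groups, the donor as a random block (duplicateCorrelation, 0.17) and moderated variances with a trend. P-values were adjusted over all genes tested (Benjamini-Hochberg, threshold 0.05). Genes entered when their mean was above -1 in at least 1 group with at least 3 values. The animal numbers in the labels pair the libraries of a donor. As a check, deviations from group means correlated by 0.18 on average (0.04 to 0.30, n = 10 pairs) within donors. Between donors of a sex the mean was -0.04, with a range that covers the first (-0.37 to 0.33, n = 40 pairs). Removal of the group means itself sets the second mean below 0 when the first is above 0, so it adds no separate comparison. Single values were compared by exact permutation tests, two-sided (Python 3.11.15, scipy 1.17.1, numpy 2.4.6, pandas 2.3.3), and matplotlib 3.10.9 was used for plots. The labels do not say that donors are single animals, so p-values measure only the spread between these samples, which may be in part technical.

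The members and all gene lists were chosen with earlier results of these data known. Named genes were the 3 members, the listed genes that passed, the genes within 500 kb and the 8 most alike genes on each scale. Likeness was taken from Chrna3 and Chrnb4 alone, since Chrna5 was empty in 9 libraries, and ratios with Chrna5 could not be formed, so the exact tests were 2 ratios and 2 Chrna5 levels in place of the 6 ratios planned. The planned samples, filters, pseudocounts, scalings, weights and blocks were varied, and voom on reads outside the mitochondrial genome was added after seeing the data. Scripts were tested on simulated data. Sequences and positions came from NCBIM37 with GENCODE vM1. The 95% intervals come from the limma fit and reflect the spread between samples. Some genes of the lists are not reported here.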

Additional observations from a re-analysis of the deposited data

Results flagged for a closer look

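Of 20 groups of libraries or donors examined, 2 held a library far from the others by Dixon's criterion, where chance gives about 1 in 20. The log2 ratio of Chrna3 to Chrnb4 was -1.44 in the sacral library of male donor 3, below the other 4 male sacral libraries, which lay between -0.86 and -0.62. In male lumbar DRG the library of donor 3 was the only one with Chrna5, at 0.0174 CPM (reads scaled to library size), which is 1 read. The other 4 libraries of that group had 0 reads, so any read in the fifth would have met the criterion. The chance rate does not apply to that flag.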

How the results depend on the processing

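The higher sacral level of Chrna3 and Chrnb4 kept its direction in each of the 25 alternatives run (-3.71 to -2.48 and -3.04 to -1.92), where -1.92 for Chrnb4 came with the glial covariate. With that covariate 107 genes in place of 7436 and 0 other subunits were called between the levels, and the cause was not tested. Other scalings changed the split of level calls: 66.5% were higher in sacral DRG as reported, 52.8% with quantile normalization, and 50.3%, 87.2% and 33.1% with voom on reads scaled by TMM, by library totals and outside the mitochondrial genome.

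The sacral sex difference of Chrnb4 stayed positive throughout. It no longer passed without the mean-variance trend (1.65, adjusted p = 0.0634), with the glial covariate (1.35, adjusted p = 0.138) or at a threshold of 0.01 (1.65), all from limma, and with donors left out it ran from 1.49 to 1.86. That of Chrna3 passed with a pseudocount of 1 (1.37) and with voom by TMM (1.53), totals (1.53) and outside the mitochondrial genome (1.48). Adjusted p ran from 0.000501 to 0.140 for Chrnb4 and from 0.0180 to 0.676 for Chrna3 (limma). The cause was not tested. Genes called between the sexes in sacral DRG numbered 27 with a pseudocount of 1, 13 with 0.1, 35, 24 and 40 with voom by TMM, totals and outside the mitochondrial genome, 27 with array weights, 18 with that level alone and 3 at a threshold of 0.01, and 3 to 9 with donors left out (3 without female donor 1 or 5). In lumbar DRG they numbered 2 without a filter, 12 with a pseudocount of 1, 4 without the trend, 4 with the glial covariate, 3 with that level alone, 4 at a threshold of 0.01, and 3 to 9 with donors left out (4 without male donor 3, 4 or 5, 3 without female donor 5). Other subunits called between the levels numbered 3 to 5 with donors left out. The ratio of Chrna3 to Chrnb4 by sex ran from -0.58 to 0.11 in lumbar and from -0.28 to 0.020 in sacral DRG with donors left out.

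Without the replicate block 6577 genes were called between the levels and 5 between the sexes in sacral DRG, where Chrnb4 kept its call (adjusted p = 0.0325, limma). The block changed no call of the members. Depth limits Chrna5, which had too few reads for a test across genes.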
